A study of Mus musculus with 9 samples.

Results

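A set of 10 genes of lipid efflux and of the liver X receptor (LXR) programme were examined: Apoe, Pltp, Abca1, Abcg1, Nr1h3, Pparg, Lpl, Lipa, Npc2 and Mylip. They were taken by symbol from a table of read counts for 50508 genes, all 10 were found, and all 10 were among the 14708 genes with enough reads to be tested. The study compared a splenic population that its submitters named TDC with conventional dendritic cells (DC) and with conventional T cells, each as 3 bulk libraries (9 in all). The mice of every group were homozygous for Zbtb46-GFP, a reporter allele in which green fluorescent protein is read out from the Zbtb46 locus used by conventional DC, and they were 8 weeks old and untreated. Replicate 1 of each population came from the pooled spleens of 5 mice, and replicates 2 and 3 came from pools of 6. The sorting gates are not given in the sources used. No reporter-free mouse is among the groups, so all 3 populations carried the allele. In bulk libraries, fewer cells of a type and less RNA per cell cannot be told apart.

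LXRs are nuclear receptors that sense oxysterols and pair with retinoid X receptors (RXR) on DNA. When cholesterol accumulates in a macrophage, they turn on the transporters Abca1 and Abcg1, which move cholesterol out of the cell, together with the acceptor Apoe, the transfer protein Pltp, the lipase Lpl and Mylip, a ubiquitin ligase that limits the uptake of lipoproteins. Lipa and Npc2 act one step earlier, releasing cholesterol from lysosomes, and Pparg encodes a fatty acid receptor that induces Nr1h3, the gene of LXR alpha, in macrophages.

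Most of the lipid efflux genes were far more abundant in TDC than in both controls. All 10 members were higher in TDC than in DC and 8 of 10 exceeded their T cell level, while Npc2 and Mylip did not pass the test against T cells. A call here means a Benjamini-Hochberg adjusted p of at most 0.05 over all tested genes by edgeR's quasi-likelihood test. Among all tested genes, 9.55% were called higher in TDC than in DC and 4.60% lower, and 21.8% were called higher in TDC than in T cells and 11.2% lower. No member was called lower in TDC in either comparison. The median log2 fold change (log2 ratio) of the members was 4.29 against DC, where that of all tested genes was 0.01, and 4.65 against T cells, where that of all tested genes was 0.14. In none of the 10 genes did a TDC library overlap a DC library, as against 20.1% of all genes with TDC wholly above DC. In 9 of 10, all but Npc2, the TDC libraries lay wholly above the T cell libraries, as against 29.6% of all genes. These 2 comparisons share the TDC libraries. Together the members took 1.30% to 1.59% of all reads in TDC libraries, 0.0569% to 0.0705% in DC libraries and 0.0736% to 0.0773% in T cell libraries.

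**Figure D1:**
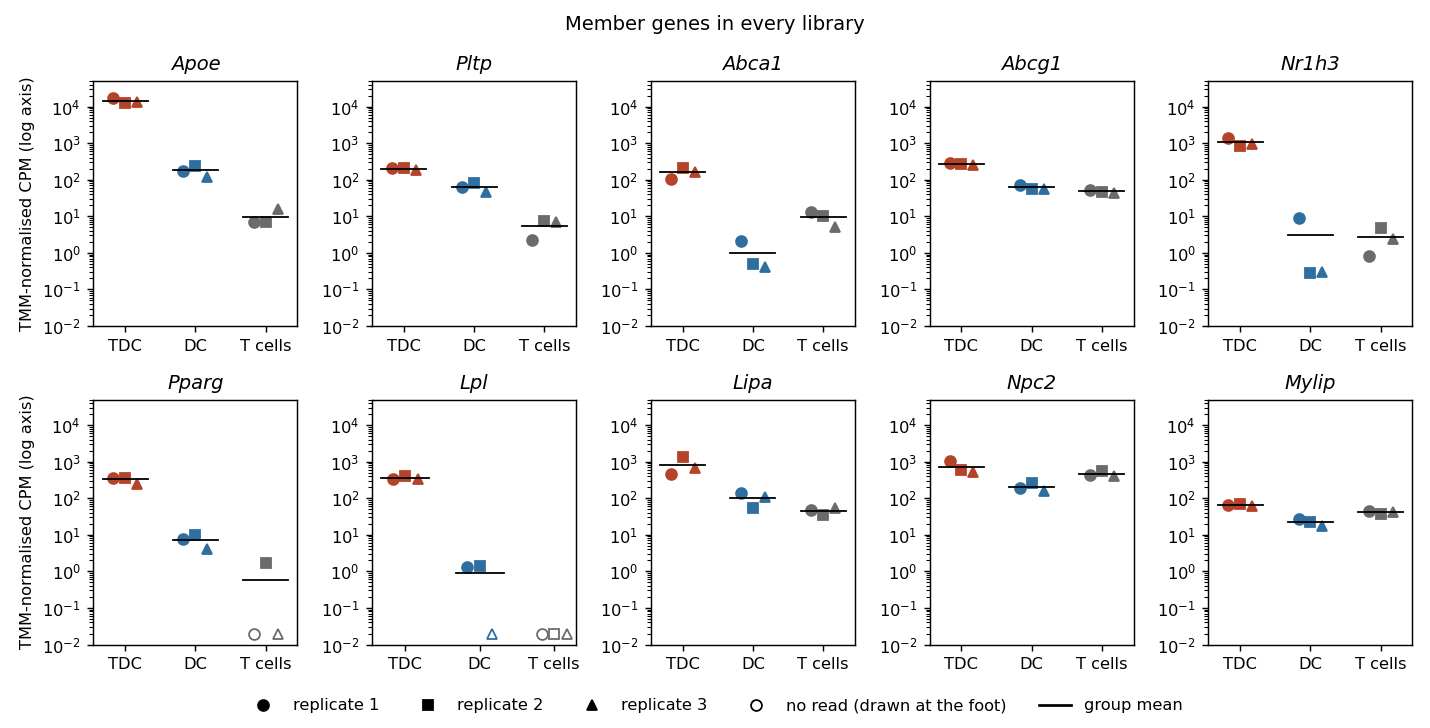
Level of each of the 10 genes in every library, in TMM-scaled CPM (log axis), with TDC to the left of DC and T cells. Each point is a library, bars are group means and open points at the foot had no read. The TDC libraries stand above both controls for 9 of the genes, and for Npc2 they overlap the T cell libraries.

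Libraries held 14594850 to 22677130 reads in TDC, 14973484 to 25676640 in DC and 10986544 to 18071425 in T cells. One read stood for 0.0383 to 0.0897 CPM depending on the library, and 3 reads over a group, used as the floor, were 0.0706 CPM in TDC, 0.0524 in DC and 0.0557 in T cells, limits of counting error only. Marker genes were read against the labels. T cell markers (8 genes) summed to 80.5 to 268 CPM in TDC, 22.4 to 27.7 in DC and 7422 to 10634 in T cells. All 8 were lower in TDC than in T cells, 7 were higher in TDC than in DC, and Cd3e and Cd3g had no read in DC. Conventional DC markers (9 genes) summed to 1961 to 5723 CPM in TDC, 3213 to 5089 in DC and 1046 to 1688 in T cells, with 7 lower in TDC than in DC. Most of the TDC sum was Sirpa, which is also made by macrophages, at 1718, 5460 and 2928 CPM in TDC and 659, 173 and 514 in DC. The other 8 genes summed to 243 to 587 CPM in TDC, 3041 to 4430 in DC and 1046 to 1688 in T cells. In T cells most of the sum was Ccr7, at 1509, 1132 and 941 CPM. Of the 9 genes, 7 were called higher in TDC than in T cells and 1 lower. Zbtb46 itself averaged 7.95 ± 2.23 CPM in TDC, 67.1 ± 40.9 in DC and 1.28 ± 0.304 in T cells (SD, n = 3 each). Red pulp macrophage markers (10 genes) moved with the lipid genes: they summed to 47394 to 77172 CPM in TDC, 187 to 303 in DC and 1.83 to 5.19 in T cells, and all 10 were higher in TDC than in both controls. Erythroid markers (7 genes) did so as well, at 599.7 to 2079, 1.49 to 22.4 and 0.633 to 1.44 CPM, with all 7 higher in TDC than in both controls. Adgre1, the macrophage surface marker F4/80, had no read in T cells. The part of these other-cell markers in the member results was not tested.

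Other marker lists were summed in the same way. Monocyte markers summed to 3716 to 12184 CPM in TDC, 1301 to 2882 in DC and 422 to 726 in T cells, with 1 of 6 higher in TDC than in DC and 1 lower. Most of the TDC sum was Csf1r, which averaged 7415 CPM in TDC, 148 in DC and 1.12 in T cells. Most of the DC sum was Nr4a1, which averaged 281 CPM in TDC, 1898 in DC and 179 in T cells. B cell markers summed to 68.4 to 129.7, 207 to 279.5 and 14.1 to 33.6 CPM, plasmacytoid DC markers to 259 to 466, 185 to 188 and 177 to 219, and NK cell markers to 75.1 to 89.3, 67.7 to 108 and 109.9 to 159, in the same order of groups. Stroma and endothelium markers reached 151 to 440.4 CPM in TDC, 30.1 to 68.0 in DC and 55.1 to 106 in T cells, and all 3 that were tested, of 6, were higher in TDC than in both controls. Most of the sum in every group was Pecam1, which averaged 244 CPM in TDC, 46.6 in DC and 83.5 in T cells. Lyve1 and Pdgfrb averaged 28.1 and 6.95 CPM in TDC. Cdh5 and Col1a1 reached at most 0.390 and 0.373 CPM in a TDC library, and Col3a1 had no read. Neutrophil markers summed to 0.298 to 63.4, 0 to 2.23 and 0 to 0.281 CPM. The part of these lists in the member results was not tested.

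Promoter sequence was read for the members because they were high in the same libraries. RefSeq (GRCm38.p6) gave windows of 250 bases before to 50 after a start site for 8 of the 10 genes (all but Abcg1 and Lpl), 13 windows in all. The 250 upstream bases are shown for the transporter Abca1, the receptor Pparg and the ubiquitin ligase Mylip, which hold matches close to the start, and for Apoe, the most abundant member, whose window at the 5' end of the gene holds none. Each is given 5′ to 3′ on the strand of the gene, and capitals mark the matches found on either strand: TATAAA (the TATA box), CACGTG (the E-box) and AGGTCA (the core site of nuclear receptors). The coordinates are chr4:53159896-53160145 on the minus strand for Abca1, chr6:115362099-115362348 on the plus strand for the second of 3 Pparg windows, chr13:45389492-45389741 on the plus strand for Mylip and chr7:19699189-19699438 on the minus strand for the first of 3 Apoe windows.
Abca1: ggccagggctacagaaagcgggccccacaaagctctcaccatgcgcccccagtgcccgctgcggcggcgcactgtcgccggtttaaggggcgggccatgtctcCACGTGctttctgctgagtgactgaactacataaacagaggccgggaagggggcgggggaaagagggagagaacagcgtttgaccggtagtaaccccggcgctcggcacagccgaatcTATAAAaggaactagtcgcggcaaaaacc
Pparg: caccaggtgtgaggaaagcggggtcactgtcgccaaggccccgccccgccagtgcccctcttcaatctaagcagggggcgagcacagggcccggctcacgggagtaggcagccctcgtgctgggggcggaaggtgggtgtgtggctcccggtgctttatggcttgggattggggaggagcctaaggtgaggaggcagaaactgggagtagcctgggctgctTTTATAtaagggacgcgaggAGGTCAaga
Mylip: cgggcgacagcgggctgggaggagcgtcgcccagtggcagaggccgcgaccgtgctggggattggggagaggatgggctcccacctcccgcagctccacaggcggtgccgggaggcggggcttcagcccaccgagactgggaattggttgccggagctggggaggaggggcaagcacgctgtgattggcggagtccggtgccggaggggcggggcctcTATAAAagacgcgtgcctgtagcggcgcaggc
Apoe: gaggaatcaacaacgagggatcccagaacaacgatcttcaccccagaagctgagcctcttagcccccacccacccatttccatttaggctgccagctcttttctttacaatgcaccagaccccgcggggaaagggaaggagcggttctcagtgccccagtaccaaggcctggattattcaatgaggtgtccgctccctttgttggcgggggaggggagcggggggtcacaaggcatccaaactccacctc

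A TATAAA match began 29 bases before the start in Abca1, 29 bases before it in Pparg (on the opposite strand) and 32 bases before it in Mylip. The same letters were present in 13.6% of the 32851 mouse windows searched and in 6 of the 13 member windows, which belong to 6 of the 8 members. The match in Lipa began 239 bases before the start and that in Pltp 36 bases after it. Those in the second Apoe window began 100 and 96 bases before the start. CACGTG was found in Abca1 alone among the members and in 7.15% of all windows. AGGTCA was found in 2 Pparg windows, beginning 28 and 9 bases before the start, and in 16.3% of all windows. Exact pairs of AGGTCA in one direction were searched, spaced by 4 bases (the arrangement that LXR and RXR bind) or by 1 base (the PPAR arrangement). The first was in 0.0152% of all windows and the second in 0.0396%, and no member window held either. Exact pairs are so rare that 13 windows could hardly hold one. These repeats contain AGGTCA, and only exact letters were searched. Sites with other letters would be missed and stay in lower case above. Whether the member promoters, that of Abca1 among them, hold an LXR or PPAR site was therefore not tested. The ETS-type letters GAGGAAGT, bound by PU.1, were in 3.2% of all windows and in none of the members'.

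Apoe and Pltp act outside the cell on lipoproteins. Apoe, on chromosome 7 (GRCm38, chr7:19696109-19699188), encodes the apolipoprotein that takes up exported cholesterol. It reached 17703, 12191 and 13376 CPM in the TDC libraries, 177, 240.3 and 122 CPM in DC and 6.96, 6.91 and 15.4 CPM in T cells. No library of one population overlapped another, and the order was TDC, DC, T cells. Apoe alone took 1.29%, 0.964% and 1.23% of the reads of the TDC libraries, where it ranked 5, 4 and 2 among all genes. The log2 fold change was 6.33 (SE 0.51, adjusted p = 0.000117) for TDC against DC, 80.2-fold, and 10.53 (SE 0.60, adjusted p = 2.89e-06) for TDC against T cells, 1478-fold.

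Pltp, on chromosome 2 (chr2:164839518-164857711), moves phospholipids between lipoproteins. It read 205, 205 and 182 CPM in TDC, 64.5, 81.4 and 47.4 CPM in DC and 2.18, 7.65 and 6.95 CPM in T cells. The groups did not overlap, and Pltp had the same order as Apoe with smaller steps. TDC exceeded DC by 1.62 on the log2 scale (SE 0.43, adjusted p = 0.0313) and T cells by 5.13 (SE 0.50, adjusted p = 4.79e-05). The call against DC was lost when TDC replicate 1, 2 or 3 or DC replicate 1 or 3 was left out, with adjusted p from 0.0622 to 0.0916. The last exon of Pltp overlaps Ctsa on the opposite strand, and Ctsa had 86880 reads in TDC, 41430 in DC and 17192 in T cells, against 8406, 3649 and 321 for Pltp. The sources do not give the strand setting of the counting, so reads of the pair cannot be told apart.

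Abca1 and Abcg1 are the ATP-driven pumps of efflux. Abca1, on chromosome 4 (chr4:53030787-53159895), loads cholesterol onto lipid-poor apolipoprotein and carries the promoter shown above. It read 103, 213 and 164 CPM in TDC, 2.11, 0.488 and 0.417 CPM in DC and 13.4, 10.2 and 5.05 CPM in T cells. The 3 groups did not overlap, and DC, not T cells, were the lowest. The log2 fold change of TDC was 7.25 against DC (SE 0.76, adjusted p = 0.000360), 152-fold, and 4.07 against T cells (SE 0.65, adjusted p = 0.000950). DC replicate 1 held most of the DC signal, with 55 reads against 7 in each of DC replicates 2 and 3. Without DC replicate 1 the log2 fold change against DC was 8.46 (adjusted p = 0.000492).

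Abcg1, on chromosome 17 (chr17:31057675-31117988), exports cholesterol to mature high-density lipoprotein. Its levels were 285, 262 and 251 CPM in TDC, 74.0, 57.5 and 54.7 CPM in DC and 53.7, 47.1 and 42.9 CPM in T cells. TDC stood apart while the 2 controls lay next to each other. TDC were higher than DC by 2.10 on the log2 scale (SE 0.27, adjusted p = 0.000982) and higher than T cells by 2.47 (SE 0.28, adjusted p = 9.47e-05). The ratio of the pumps did not overlap between the populations. For each Abcg1 read there were 0.361, 0.814 and 0.654 Abca1 reads in TDC, 0.0285, 0.00848 and 0.00763 in DC and 0.249, 0.216 and 0.118 in T cells, a ratio of 3'-end reads that was lowest in every DC library.

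Nuclear receptors that control the efflux genes came next. Nr1h3, on chromosome 2 (chr2:91184061-91202834), encodes LXR alpha, the isoform of macrophages and liver. It read 1345, 853 and 966 CPM in TDC, 8.84, 0.279 and 0.298 CPM in DC and 0.844, 4.79 and 2.47 CPM in T cells. TDC were above every control library, and the controls overlapped. The log2 fold change of TDC was 8.35 against DC (SE 1.37, adjusted p = 0.00304) and 8.59 against T cells (SE 1.39, adjusted p = 0.00106). The DC level rested on replicate 1, with 231 reads where the other two libraries had 4 and 5. Without it the log2 fold change against DC was 11.80 (adjusted p = 0.000492), and without T cell replicate 2 that against T cells was 9.29 (adjusted p = 0.00463). DC replicate 1 also had the highest summed red pulp macrophage markers of the DC libraries, 303 CPM against 187 and 249 in replicates 2 and 3. Most of each sum was Adgre1, at 212, 103 and 149 CPM in DC replicates 1, 2 and 3. Spic (10.4, 18.4 and 21.8 CPM) and Hmox1 (25.4, 38.4 and 37.6 CPM) were lowest in replicate 1. Vcam1, C1qa, C1qb, C1qc, Mertk and Siglec1 were highest there. The part of these markers in its Nr1h3 reads was not tested. Nr1h3 shares exon sequence with Gm13783 on the same strand, which had 184 reads in TDC, 9 in DC and 0 in T cells, against 43249, 240 and 157 for Nr1h3.

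Nr1h2, the gene of the widely expressed LXR beta, averaged 106 ± 14.8 CPM in TDC, 116 ± 12.5 in DC and 113 ± 29.0 in T cells (SD, n = 3 each) and was not called in any comparison. Its log2 fold change was -0.12 against DC (SE 0.29, adjusted p = 0.834) and -0.10 against T cells (SE 0.29, adjusted p = 0.831). For each Nr1h2 read the TDC libraries held 14.1, 6.94 and 9.68 Nr1h3 reads, the DC libraries 0.0755, 0.00272 and 0.00234, and the T cell libraries 0.00788, 0.0545 and 0.0171. Nr1h3 reads thus outnumbered Nr1h2 reads in TDC libraries and were fewer than Nr1h2 reads in every control library. Rxra, an RXR partner of both LXRs, averaged 216 ± 153 CPM in TDC, 11.2 ± 10.4 in DC and 2.36 ± 1.47 in T cells, with log2 fold changes of 4.28 against DC (SE 0.82, adjusted p = 0.00670) and 6.53 against T cells (SE 0.92, adjusted p = 0.000447). Without TDC replicate 2 these were 3.47 (adjusted p = 0.0300) and 5.78 (adjusted p = 0.00143), and without DC replicate 3 the value against DC was 5.36 (adjusted p = 0.00310). The call of Rxra against DC was lost without all libraries of replicate number 1 (4.37, adjusted p = 0.0611) or number 2 (3.04, adjusted p = 0.0781).

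Pparg, on chromosome 6 (chr6:115360951-115490399), had 366, 363 and 251 CPM in TDC, 7.50, 9.89 and 4.11 CPM in DC and 0, 1.73 and 0 CPM in T cells. The 3 groups did not overlap. All 35 T cell reads came from replicate 2. TDC were higher than DC by 5.51 on the log2 scale (SE 1.05, adjusted p = 0.00653) and higher than T cells by 9.06 (SE 1.25, adjusted p = 0.000402). Without T cell replicate 2 no T cell read remained, and the fitted value of 15.41 (adjusted p = 3.41e-05) is then no measure of size. Ppard, the gene of another PPAR, was low everywhere, at 1.38 CPM in TDC, 3.65 in DC and 2.64 in T cells on average, and was not called.

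Lpl, Lipa and Npc2 supply lipid to the cell. Lpl, on chromosome 8 (chr8:68880491-68907448), encodes lipoprotein lipase, which splits triglycerides of circulating lipoproteins. It read 343, 396 and 329.8 CPM in TDC, 1.30, 1.39 and 0 CPM in DC, and had no read in any T cell library. Lpl was thus at least 6393-fold higher in TDC than in T cells when the T cell group was set at its floor of 3 reads over the group (adjusted p = 0.000127). Against DC the log2 fold change was 8.61 (SE 1.00, adjusted p = 0.00127).

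Lipa, on chromosome 19 (chr19:34492318-34527474), encodes lysosomal acid lipase, which frees cholesterol from its esters. It read 470.3, 1351 and 662 CPM in TDC, 136, 54.6 and 106 CPM in DC and 48.4, 34.5 and 55.2 CPM in T cells. TDC lay above all controls but varied more than 2-fold among themselves, and DC and T cells overlapped. TDC were higher than DC by 3.06 on the log2 scale (SE 0.49, adjusted p = 0.00261), a value of 2.46 without TDC replicate 2 (adjusted p = 0.00989), and higher than T cells by 4.17 (SE 0.51, adjusted p = 0.000191).

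Npc2, on chromosome 12 (chr12:84754562-84773152), encodes the soluble lysosomal protein that hands cholesterol to the membrane protein Npc1. It was abundant in all 3 populations, at 1034, 589 and 511 CPM in TDC, 194, 259.7 and 154 CPM in DC and 426, 539 and 398 CPM in T cells. TDC overlapped T cells, and DC were the lowest. TDC were higher than DC by 1.81 on the log2 scale (SE 0.36, adjusted p = 0.00732), while the value of 0.65 against T cells did not pass the test (SE 0.35, adjusted p = 0.179). Npc1, by contrast, averaged 57.6 ± 7.66 CPM in TDC, 17.1 ± 8.20 in DC and 10.3 ± 1.19 in T cells, and was higher in TDC than in DC (log2 ratio 1.76, SE 0.41, adjusted p = 0.0170) and than in T cells (2.48, SE 0.42, adjusted p = 0.00135). Without TDC replicate 2 or DC replicate 1 the call of Npc1 against DC was lost (adjusted p = 0.0663 and 0.0604).

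Mylip, on chromosome 13 (chr13:45389742-45412022), encodes a ubiquitin ligase that limits lipoprotein uptake. Its levels were 63.4, 69.7 and 60.2 CPM in TDC, 27.8, 21.9 and 17.7 CPM in DC and 44.2, 38.2 and 40.8 CPM in T cells. The groups did not overlap, with T cells between TDC and DC. TDC were higher than DC by 1.52 on the log2 scale (SE 0.30, adjusted p = 0.00778), while the value of 0.65 against T cells did not pass the test (SE 0.30, adjusted p = 0.120). The call of Mylip against DC was lost without all libraries of replicate number 1, 2 or 3 (adjusted p = 0.0674, 0.0905 and 0.110). Under scaling by library size alone, the values of Npc2 and Mylip against T cells were 0.01 and 0.03.

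The share of each gene's signal that came from TDC orders the members. Of the sum of the 3 group means, TDC held 99.7% for Lpl, 99.4% for Nr1h3, 98.7% for Apoe, 97.7% for Pparg and 93.8% for Abca1. It held 85.1% for Lipa, 73.8% for Pltp and 70.8% for Abcg1. For Npc2 and Mylip it held 52.0% and 50.3%. Npc2 and Mylip were thus the members with the most even levels over the populations.

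**Figure D2:**
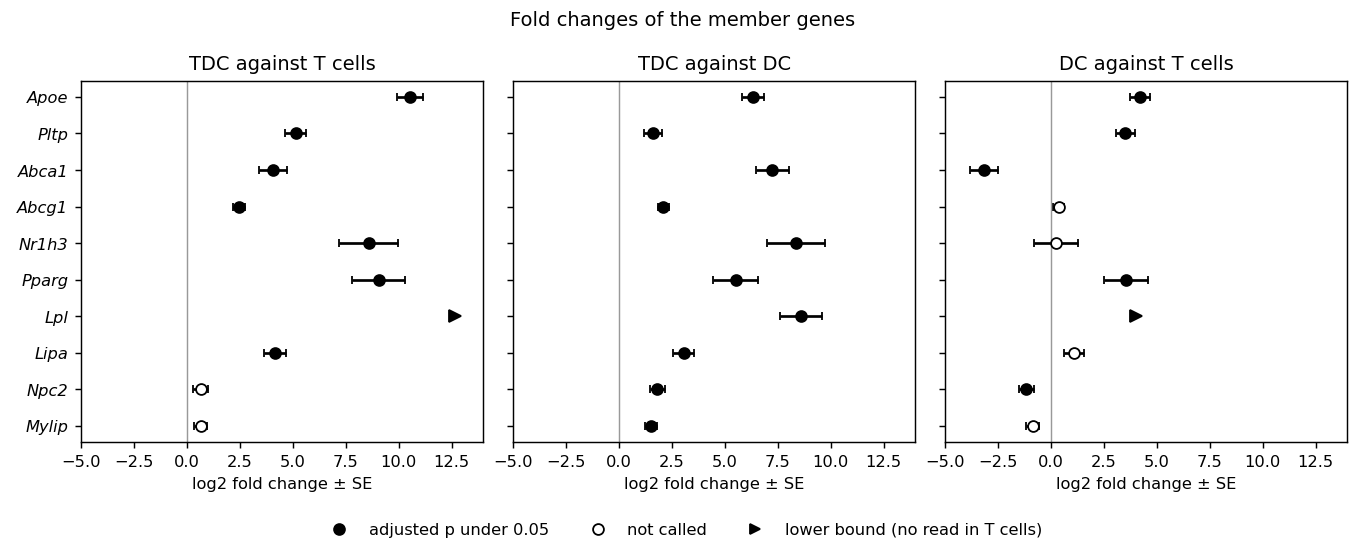
Log2 fold change of each gene with its standard error, for TDC against T cells, TDC against DC and DC against T cells; filled points passed the test, and triangles mark the lower bound for Lpl, which had no read in T cells. All 10 values of TDC against DC are above 0, and those of DC against T cells lie on both sides of 0.

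Between the controls the members went in both directions. DC were higher than T cells in 4 (Apoe, Pltp, Pparg and Lpl) and lower in 2 (Abca1 and Npc2), and 4 were not called (Abcg1, Nr1h3, Lipa and Mylip). Among all tested genes, 15.4% were called higher in DC and 8.41% lower. This comparison uses the same DC and T cell libraries as the comparisons with TDC. Apoe was higher in DC by 4.20 on the log2 scale (SE 0.46, adjusted p = 0.000107) and Pltp by 3.52 (SE 0.47, adjusted p = 0.000395). Pparg was higher by 3.55 (SE 1.03, adjusted p = 0.0296), and Lpl was at least 16.1-fold higher (adjusted p = 0.0200), although DC replicate 3 had no Lpl read and met the T cell libraries there. Abca1 was lower in DC, with a log2 fold change of -3.17 (SE 0.65, adjusted p = 0.00511), which was -4.37 without DC replicate 1 (adjusted p = 0.00129). Npc2 was lower with -1.16 (SE 0.35, adjusted p = 0.0334). The values that did not pass were 0.37 for Abcg1 (SE 0.26, adjusted p = 0.351), 1.10 for Lipa (SE 0.46, adjusted p = 0.110) and -0.87 for Mylip (SE 0.30, adjusted p = 0.0590), whose DC libraries all lay below the T cell libraries.

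Several of these calls between the controls were lost when a library was left out, with fold changes near those from all libraries. That of Pparg was lost without DC replicate 1 or T cell replicate 1 or 3 (2.97 to 3.52 on the log2 scale, adjusted p 0.0614 to 0.0732), and without T cell replicate 2 no T cell read remained (fitted value 9.90, adjusted p = 0.000266). That of Lpl was lost without DC replicate 1 or T cell replicate 2 or 3 (adjusted p 0.0505 to 0.0597, with no T cell read in any of these). That of Npc2 was lost without DC replicate 1 or 3 or any 1 of the T cell replicates (adjusted p 0.0607 to 0.108 over these, with values of -1.13 without DC replicate 1 and of -1.21, -1.03 and -1.25 without T cell replicates 1, 2 and 3). Mylip was called lower in DC with DESeq2 size factors, library size or upper-quartile scaling and with the DESeq2 test (adjusted p 0.00773 to 0.0489), and Lipa was called higher in DC without DC replicate 2 (log2 ratio 1.45, adjusted p = 0.0409). The number called higher in DC was 2 without DC replicate 1 and 2 without T cell replicate 3, and the number called lower was 1 without DC replicate 3 or any 1 of the T cell replicates. For Nr1h3 the log2 fold change of 0.24 (SE 1.04, adjusted p = 0.906) turned to -3.20 without DC replicate 1, when it was called (adjusted p = 0.0176), and to -0.16 without T cell replicate 1 (adjusted p = 0.956).

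Genes that act with LXR were examined beyond Rxra. Of 13 tested partners and coregulators (of 14 listed), 2 rose and 1 fell in TDC relative to T cells, and 1 rose and 0 fell relative to DC, with medians of 0.36 and -0.12 on the log2 scale. Among all tested genes 21.8% rose and 11.2% fell relative to T cells and 9.55% rose and 4.60% fell relative to DC, shares against which the counts of this list and of those below are to be read. Gps2, a subunit of the NCoR corepressor complex, averaged 117 CPM in TDC and 315 in T cells (log2 ratio -1.43, SE 0.36, adjusted p = 0.0126). Nrip1, a corepressor of nuclear receptors, averaged 139 CPM in TDC and 56.3 in T cells (1.31, SE 0.44, adjusted p = 0.0444). Tbl1xr1, another corepressor subunit, was the only one called in DC against T cells, at 61.2 CPM in DC and 25.7 in T cells (1.25, SE 0.41, adjusted p = 0.0476). The calls of Nrip1 and Tbl1xr1 were fragile: that of Nrip1 was lost without TDC replicate 2 or 3, DC replicate 1 or any 1 T cell replicate (adjusted p 0.0573 to 0.191), and that of Tbl1xr1 without TDC replicate 3, DC replicate 1 or 3 or any 1 T cell replicate (adjusted p 0.0770 to 0.144).

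Of 12 tested other LXR target genes (of 18 listed), 9 rose and 1 fell in TDC relative to T cells, and 6 rose and 1 fell relative to DC, with medians of 2.38 and 1.86. Mertk, a receptor for dying cells, averaged 888 ± 452 CPM in TDC, 0.204 ± 0.354 in DC and 0 in T cells, and Cd5l, a secreted survival factor of macrophages, 3013 ± 845, 0.612 ± 1.06 and 0 CPM. Both had adjusted p of 0.000761 and 0.00172 against DC, with log2 fold changes of 11.77 (SE 1.21) and 12.09 (SE 1.53), and both are also genes of red pulp macrophages. Their DC reads came from replicate 1 alone, and without it the fitted values of 16.80 for Mertk (adjusted p = 0.00116) and 18.56 for Cd5l (adjusted p = 0.000492) are no measure of size. Smpdl3a, a phosphodiesterase, averaged 501 ± 79.3 CPM in TDC, 79.8 ± 22.9 in DC and 137 ± 43.5 in T cells (log2 ratio against DC 2.65, SE 0.36, adjusted p = 0.00118). Srebf1, the regulator of fatty acid synthesis, averaged 132 CPM in TDC, 41.5 in DC and 31.3 in T cells, called against T cells (2.07, SE 0.59, adjusted p = 0.0210) and not against DC (1.66, SE 0.58, adjusted p = 0.0871). Arl4c, a small GTPase, was the target that was lower in TDC, at 18.0 ± 2.04 CPM, against 55.3 ± 34.3 in DC and 61.7 ± 15.6 in T cells (-1.62, SE 0.44, adjusted p = 0.0342 against DC and -1.78, SE 0.44, adjusted p = 0.0114 against T cells). Its call against DC was lost without any 1 TDC replicate, DC replicate 2 or T cell replicate 2 (adjusted p 0.0527 to 0.105), and that of Srebf1 against T cells without TDC replicate 2 (1.23, adjusted p = 0.132), without T cell replicate 1 or 2 (adjusted p = 0.0653 and 0.0800) and with library size alone (1.44, adjusted p = 0.0938). Against DC, Srebf1 passed with the DESeq2 test (1.65, adjusted p = 0.0372) and with no filter on low counts (1.69, adjusted p = 0.0412).

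Genes regulated by PPARs were counted in the same way. Of 12 tested PPAR receptors and targets (of 14 listed), 10 rose and 0 fell in TDC relative to T cells, and 5 rose and 0 fell relative to DC, with medians of 2.47 and 1.43. Plin2, which coats lipid droplets, averaged 540.5 ± 265 CPM in TDC, 91.4 ± 20.6 in DC and 21.6 ± 4.10 in T cells (log2 ratio 2.56, SE 0.40, adjusted p = 0.00232 against DC and 4.64, SE 0.44, adjusted p = 3.62e-05 against T cells). Angptl4, a secreted inhibitor of lipoprotein lipase, averaged 190.2 ± 91.0 CPM in TDC, 0.139 ± 0.241 in DC and 2.46 ± 2.33 in T cells (10.62, SE 1.64, adjusted p = 0.00232 against DC). Its DC reads came from replicate 2 alone, and the value was 9.86 without DC replicate 1 (adjusted p = 0.0120). Lpl and its inhibitor were thus both high in TDC and under 1 CPM on average in DC.

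Of 11 tested lipid uptake genes (of 14 listed), 10 rose in TDC relative to T cells, with a median of 7.98, and 6 rose and 1 fell relative to DC, with a median of 1.77. The scavenger receptors Marco and Msr1 averaged 1278 and 81.6 CPM in TDC and 0.523 and 0.974 in DC (log2 ratios 11.06, SE 1.44, adjusted p = 0.00196 and 6.34, SE 0.99, adjusted p = 0.00234). Without DC replicate 1, which held the DC reads of Marco, the value of Msr1 was 7.32 (adjusted p = 0.00607). Scarb1, a receptor for high-density lipoprotein, averaged 518 ± 85.2 CPM in TDC, 151 ± 49.8 in DC and 16.1 ± 4.50 in T cells. Cd36, a fatty acid and oxidised lipoprotein receptor and a PPAR gamma target in macrophages, went the other way between TDC and DC, with 46.9 ± 15.1 CPM in TDC, 142 ± 30.9 in DC and no read in T cells (log2 ratio against DC -1.60, SE 0.37, adjusted p = 0.0227). This call was lost without TDC replicate 1 or 2 or DC replicate 1 or 3 (adjusted p 0.0509 to 0.0889).

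Lysosomal lipid genes, the neighbours of Lipa and Npc2 in function, rose in TDC relative to T cells in 16 of 17, with a median of 2.78, and 10 rose and 1 fell relative to DC, with a median of 1.76. Hexa, a hexosaminidase subunit, averaged 1465 ± 317 CPM in TDC, 342 ± 23.2 in DC and 85.4 ± 3.57 in T cells, and Asah1, acid ceramidase, 1453 ± 138, 442 ± 105 and 41.1 ± 2.35 CPM. Gm2a, the activator of hexosaminidase A, was the exception, at 1373 ± 44.2 CPM in TDC, 4948 ± 468 in DC and 222 ± 51.5 in T cells (log2 ratio against DC -1.85, SE 0.29, adjusted p = 0.00234).

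Genes of cholesterol esterification, oxidation and transport inside the cell divided. Of 17 tested, 9 rose and 1 fell in TDC relative to T cells, and 4 rose and 2 fell relative to DC, with medians of 1.29 and 0.18. Nceh1, which hydrolyses cholesteryl esters, averaged 170.2 ± 60.5 CPM in TDC, 12.2 ± 7.62 in DC and 14.1 ± 6.76 in T cells (log2 ratio against DC 3.80, SE 0.58, adjusted p = 0.00225, and 4.46, adjusted p = 0.00315, without DC replicate 1). Cyp27a1, which makes 27-hydroxycholesterol, an LXR ligand, averaged 194 ± 45.3 CPM in TDC, 498 ± 43.1 in DC and 0 in T cells, lower in TDC than in DC (-1.36, SE 0.31, adjusted p = 0.0201). Lipe, hormone-sensitive lipase, averaged 13.6 CPM in TDC and 42.2 in DC (-1.64, SE 0.36, adjusted p = 0.0119). The call of Cyp27a1 was lost without TDC replicate 2 or DC replicate 1 or 3 (adjusted p 0.0518 to 0.0742), and that of Lipe without DC replicate 1 (adjusted p = 0.0508).

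Genes of cholesterol synthesis were the last list. Of 22 tested genes of synthesis and its regulator SREBP2 (of 23 listed), 2 rose and 0 fell in TDC relative to T cells, and 0 rose and 1 fell relative to DC, with medians of 0.26 and 0.12, where 21.8% and 11.2% of all tested genes rose and fell relative to T cells and 9.55% and 4.60% relative to DC. Srebf2, the gene of SREBP2, averaged 63.3 ± 20.6 CPM in TDC, 201 ± 77.8 in DC and 105 ± 21.5 in T cells, lower in TDC than in DC (log2 ratio -1.67, SE 0.40, adjusted p = 0.0191). Insig1 and Insig2, which hold SREBP in the endoplasmic reticulum, were the pair higher in TDC than in T cells (1.38, SE 0.32, adjusted p = 0.00756 and 1.29, SE 0.44, adjusted p = 0.0451). The call of Srebf2 was lost without TDC replicate 1 or 2 or DC replicate 1 or 3 (adjusted p 0.0543 to 0.0671), and that of Insig2 without any 1 TDC or T cell replicate or DC replicate 1 (adjusted p 0.0516 to 0.142). With scaling by library size alone neither Insig gene passed (0.74, adjusted p = 0.0998 and 0.67, adjusted p = 0.256).

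**Figure D3:**
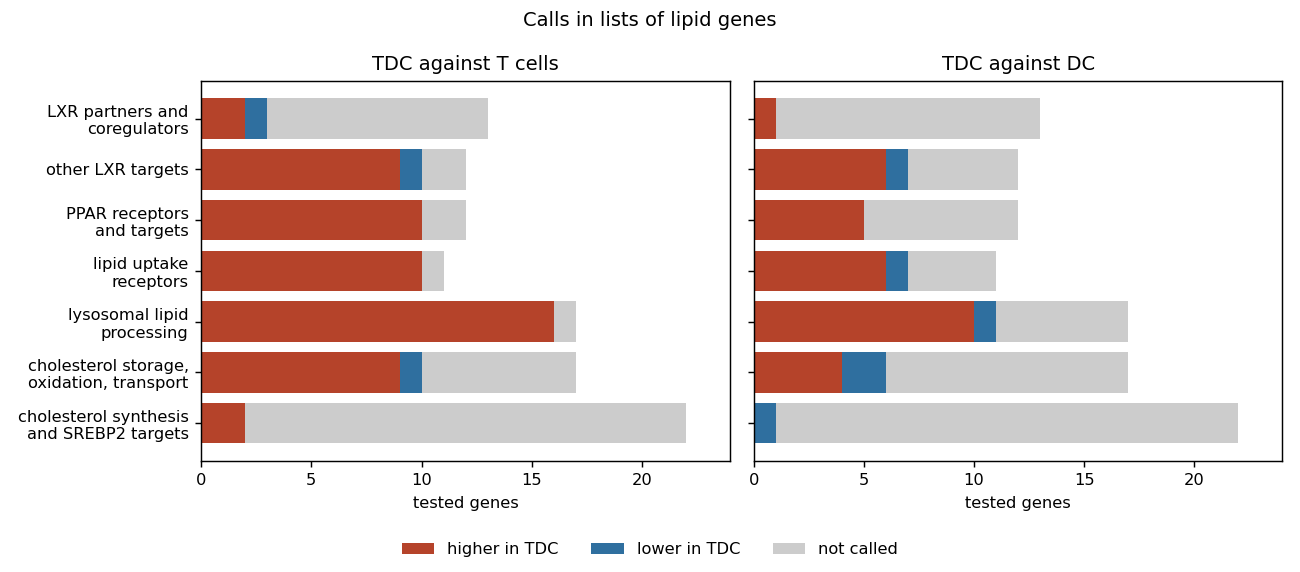
Number of tested genes in each of 7 lists of lipid genes that were called higher in TDC, lower in TDC or not called, for TDC against T cells (left) and TDC against DC (right). In the lysosomal list 16 of 17 genes were higher in the comparison with T cells and 10 in that with DC, and in the cholesterol synthesis list 2 and 0 of 22.

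Genes with a like pattern were found by the root mean square difference of log2 CPM (prior count 2) over the 9 libraries after centring each gene, where 0 is the same pattern, among 12298 genes. Npc2 and Mylip had close neighbours, Comtd1 at 0.16 and Cers2 at 0.14, and so did Abcg1 with Adipor1 at 0.16, and Lipa with Ncoa4 at 0.27. Pltp was nearest to Pkdcc at 0.45, Abca1 to Oplah at 0.47, Lpl to Gfra2 at 0.47 and Apoe to Fcgr1 at 0.57, an Fc receptor gene of macrophages. Pparg had Pilrb1 at 0.63, and Nr1h3 had no gene closer than Lilra5 at 1.09. Small distances come more easily to genes with small differences, so these values do not rank the members against each other. Among the members themselves the closest pair was Npc2 and Mylip at 0.37, followed by Abcg1 and Mylip at 0.77 and Abcg1 and Lipa at 0.82. Many genes outside the set were closer. Among all tested genes, Mylip ranked 47 in nearness to Npc2, and for Abcg1 Mylip ranked 814 and Lipa 1055. Apoe lay 1.32 from Pparg and 1.44 from Lpl. The farthest pairs were Lpl with Npc2 and Lpl with Mylip, both at 4.65.

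**Figure D4:**
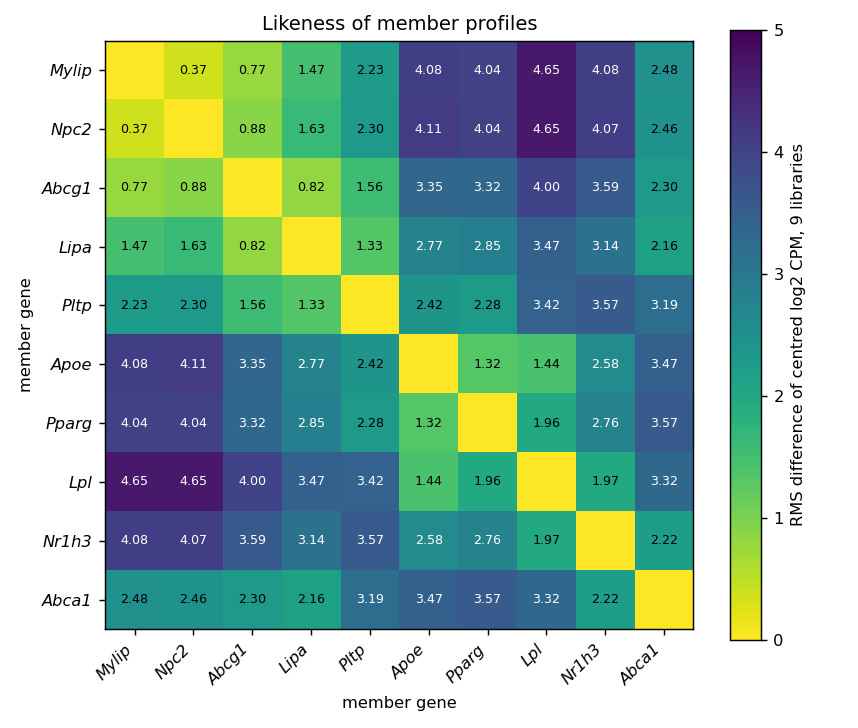
Root mean square difference of centred log2 CPM over the 9 libraries for every pair of the 10 genes; both axes are genes, and a darker cell is a larger difference. Npc2 and Mylip form the lightest cell off the diagonal at 0.37, and Lpl with either of them the darkest at 4.65.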

How the data were processed

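Total RNA of sorted splenic TDC, conventional DC and conventional T cells (3 libraries each) was sequenced after Lexogen QuantSeq stranded preparation, per the labels' protocols. This kit reads near the 3' end, so a level follows transcript number with little dependence on length. The authors deposited 1 table of whole-number read counts per gene, not normalised. FastQC, MultiQC, Trimmomatic, STAR and featureCounts are the tools in the submitters' processing notes, which name the build hg38 although the gene symbols are mouse. For versions, annotation and strand setting the sources used here give nothing. The deposited counts carry no coordinates, so positions come from a GRCm38 annotation.

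Counts were tested as deposited with edgeR 4.0.16 (R 4.3.3): filterByExpr (minimum count 10, minimum total 15), TMM factors and 1 robust quasi-likelihood fit of the 9 libraries (6 residual degrees of freedom), with Benjamini-Hochberg adjustment over 14708 genes at 0.05. CPM are TMM-scaled. The common biological coefficient of variation was 0.588. Replicates differed beyond sampling noise (chi-square per degree of freedom 62.3 to 250). Labels do not say whether pools share animals, so p-values measure the spread between pools. Genes named from the lists were up to 3 called genes per list and comparison with the smallest adjusted p, of which only some are printed; Nr1h2, Ppard, Npc1, Srebf1 and Arl4c, and the comparison with DC for Cd36, Gm2a and Cyp27a1, were named after their values were seen. The members and lists were chosen with earlier results of these data known. Counts of calls and the fold changes of the members and of most other genes tested by name were recomputed with other scaling (size factors of DESeq2, upper quartile, library size alone), with other filters (none, or 10 CPM), with other tests (Wald test of DESeq2 1.42.0, voom in limma 3.58.1), from 2 groups only, with a block for replicate number, and without each library or replicate number in turn.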

Additional observations from a re-analysis of the deposited data

How the results depend on the processing

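The 8 members higher in TDC than in T cells numbered 8 under every alternative run. The 10 higher than in DC numbered 9 or 10 under other settings and 6 to 10 when a library or a replicate number was left out. The value of 6 was that without replicate number 1, when Pltp, Pparg, Npc2 and Mylip lost the call. Pltp and Mylip also lost it without number 2 (edgeR adjusted p = 0.112 and 0.0905) and without number 3 (0.158 and 0.110). Members higher in DC than in T cells (4) were 2 with no filter, 2 with only the 2 groups fitted and 2 to 5 with libraries left out, and those lower (2) were 0 to 2 with libraries left out and 3 with DESeq2 size factors, library size alone, upper-quartile scaling or the DESeq2 test. Nr1h3 in DC against T cells turned to -1.05 with limma-voom, -0.80 with the replicate block, -3.20 without DC replicate 1, -0.16 without T cell replicate 1 and -3.62 without replicate number 1, in a range from -3.62 to 1.47 with libraries or numbers left out. The value of Nr1h2 in TDC against T cells, not called, also turned with libraries left out, from -0.41 to 0.16. Without replicate number 1, Angptl4 and Plin2 lost their calls against DC (edgeR adjusted p = 0.0675 and 0.0528). Against T cells, Arl4c and Insig1 lost theirs without number 1 (0.0593 and 0.0693) and Insig1 without number 2 (0.0925). Without number 3, Gps2 and Arl4c lost theirs against T cells (0.0659 and 0.0558). Of 629 alternatives for single members, 580 gave the same call, 39 lost it, 5 gained it and 5 reversed. All genes lower in TDC than in T cells (1654) were 3321 with library size alone, and those lower in DC than in T cells (1237) were 1886. All genes lower in TDC than in DC (677) were 1234 with DESeq2, 1051 with limma-voom and 431 with the replicate block. With libraries left out, all genes numbered 1984 to 3585 higher and 652 to 1945 lower for TDC against T cells, 548 to 1365 and 81 to 611 for TDC against DC, and 1283 to 2492 and 552 to 1384 for DC against T cells, and list genes 45 to 66, 15 to 39 and 18 to 49 (61, 38 and 31 with all libraries). Library size alone moved the median of all genes by -0.61, -0.29 and -0.29 in these comparisons, and the share of calls that were higher was then 42.9%, 53.1% and 50.2% in place of 66.0%, 67.5% and 64.7%. Of the 30 nearest genes, 19 were the same with a prior count of 0.5. The cause of these changes was not tested. Libraries with the same replicate number share a sample code and a pool size in the labels, which do not say that they came from the same animals or day. Their deviations from the group means correlated at -0.384 to 0.224, at 0.0481, 0.224 and 0.116 between DC and T cells but at or below 0.0371 between TDC and both, so a pairing was not established. With the replicate number as a block, 8 members passed against T cells and 9 against DC, where Pltp missed (adjusted p = 0.0502, edgeR). Depth limits Lpl and Pparg in T cells and Lpl in DC, at 0 to 35 reads. It also limits Nr1h3 and Abca1 in DC replicates 2 and 3, at 4 to 7 reads. In T cell replicate 1, Nr1h3 and Pltp had 12 and 31 reads.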
